A study of Homo sapiens with 18 samples.

Results

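The genes described here are 10 parts of the mTORC1 pathway, chosen by name: the stress inhibitors *DDIT4*, *SESN1*, *SESN2* and *SESN3*, the inhibitory subunit *DEPTOR*, the substrate *EIF4EBP1*, the upstream brake *TSC1* and *TSC2*, and the core subunits *MTOR* and *RPTOR*. All 10 are among the 45372 gene symbols of the RNA sequencing table and had a mean of at least 1 TPM (a level corrected for gene length and scaled to the same sum in every library) in both cell lines. The table holds 18 libraries of MV4-11 and THP1 (written THP-1 in the labels), established lines of acute myeloid leukemia (AML), each with a rearranged *KMT2A*. MV4-11 also carries FLT3-ITD. Each cell line has 3 libraries from cells given DMSO, the vehicle, 3 after 8 h and 3 after 24 h of 50 nM IACS (IACS-010759, an inhibitor of complex I of the respiratory chain). Within a line, both IACS times are set against 1 group of 3 DMSO libraries and so share it, and the time of the DMSO cells is not given in the sources used here. Neither cell line was set beside primary leukemia cells here, so each group stands for 1 line.

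mTORC1 is the kinase complex of mTOR and raptor (encoded by *RPTOR*) that promotes protein synthesis and growth when amino acids, growth factors and energy are plentiful. The TSC complex, of which *TSC1* and *TSC2* encode the core, switches off the GTPase *RHEB* and thereby holds mTORC1 back. *DDIT4* encodes REDD1, which acts through the TSC complex, while the sestrins (*SESN1*, *SESN2*, *SESN3*) act on the GATOR branch that reports amino acids to the Rag GTPases. *DEPTOR* binds mTOR and inhibits it, and *EIF4EBP1* encodes 4E-BP1, a translation repressor that mTORC1 inactivates by phosphorylation. *DDIT4* and *SESN2* are known targets of *ATF4*, the transcription factor of the integrated stress response, and *SESN3* of FOXO factors. The study's guide library targeted *DDIT4* and *SESN2* as *ATF4* targets and drew in part on the transcripts that led in these same libraries, so their direction here is not independent evidence for that choice. Transcript levels say nothing of the activity of mTORC1, which phosphorylation sets and which was not analysed here.

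Depth was recovered from the TPM as whole reads (or read pairs), at 19.9 to 26.5 in units of 1000000 per library (median 22.2). The 10 genes rested on 74 reads (*DDIT4*, the lowest library) to 18683 reads (*SESN3*, the highest). 5 abundant noncoding RNAs held 39.6% to 60.1% of the TPM, and their share was highest in the 3 THP1 libraries numbered 3 (55.8% to 60.1%), which is why values without these 3 are given for *DDIT4*, *SESN2*, *SESN3* and *EIF4EBP1* in THP1. Of 13 myeloid line markers, 12 reached a median of 1 TPM in each cell line. *ITGAM* did not in MV4-11 and *MEIS1* did not in THP1. Of 10 markers of other cell types, 2 reached it in MV4-11 (*PECAM1* and *KRT18*) and 1 in THP1 (*PECAM1*), and *HBB* was at 0 in all libraries. In bulk RNA, fewer cells of a type and less RNA per cell cannot be told apart.

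The promoters of *DDIT4* and *SESN2*, the members with the highest log2 fold changes after IACS, and of *TSC2*, the only one of the 8 members found in the promoter table with a match to the ATF4-CHOP composite motif, are shown first. They are the bases before the first annotated exon on GRCh38.p14, from RefSeq, for *DDIT4* at chr10:72273674-72273918 (+), for *SESN2* at chr1:28259268-28259517 (+) and for *TSC2* at chr16:2047735-2047966 (+). Capitals mark matches to ACGTG (the core of the hypoxia response element and of E-boxes), GCGTG (its other form), TGATGNAA (the ATF4-CHOP composite) and CCAAT (the NF-Y box), read on both strands, so that ATTGG is CCAAT on the other strand.
DDIT4: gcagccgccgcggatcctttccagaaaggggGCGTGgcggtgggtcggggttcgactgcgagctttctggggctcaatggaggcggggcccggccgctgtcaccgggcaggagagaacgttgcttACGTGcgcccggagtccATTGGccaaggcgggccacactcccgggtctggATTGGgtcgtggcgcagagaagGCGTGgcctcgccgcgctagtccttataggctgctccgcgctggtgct
SESN2: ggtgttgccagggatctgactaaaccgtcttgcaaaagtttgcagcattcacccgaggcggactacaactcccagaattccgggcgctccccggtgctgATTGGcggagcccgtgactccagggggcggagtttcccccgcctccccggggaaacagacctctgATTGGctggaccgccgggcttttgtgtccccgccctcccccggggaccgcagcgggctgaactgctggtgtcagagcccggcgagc
TSC2: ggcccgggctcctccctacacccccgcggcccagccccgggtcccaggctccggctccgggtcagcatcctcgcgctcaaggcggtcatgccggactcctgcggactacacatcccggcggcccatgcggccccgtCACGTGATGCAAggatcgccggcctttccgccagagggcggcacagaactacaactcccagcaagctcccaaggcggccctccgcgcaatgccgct

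In *DDIT4*, the run ACGTG lies between a pair of GCGTG matches, and a pair of CCAAT boxes follows it. *SESN2* has only a pair of CCAAT boxes among these letters. In *TSC2*, a match to ACGTG on each strand overlaps the match to TGATGNAA. Among the 35116 promoters of the table (27305 symbols; 250 bases before the start), 18.5% held ACGTG, 32.2% GCGTG, 3.14% TGATGNAA, 2.98% the FOXO motif GTAAACA, 32.0% at least 1 CCAAT and 9.53% at least 2. The CCAAT box was searched for after the sequences had been read. The table holds 11 promoters of 8 members. *MTOR* held 3 CCAAT boxes and no member held GTAAACA, *SESN3* included. A match describes letters only, and a missing one says nothing of a factor's binding beyond this window.

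After IACS, the largest differences from DMSO among the members were those of *DDIT4* and *SESN2* on the high side and of *SESN3* in THP1 on the low side, and none of them passed the main test. The other 7 members had log2 fold changes of -0.28 to 0.29 in all 4 comparisons. That test was limma on log2(TPM + 1), where a call needed a fold change over 1.5 together with p under 0.05 after Benjamini-Hochberg adjustment. On this scale changes at low TPM come out too small. 0 of the 10 members were called in MV4-11 at 8 h, where 0.0148% of all tested genes were, or at 24 h (0.0886% of all genes). In THP1, too, 0 of 10 were called at 8 h (0.0144% of all genes) and at 24 h (0.0431%). The calls over all genes were thus themselves few. Without adjustment of the limma p, the same fold threshold was passed by 2 members in MV4-11 at 8 h (*DDIT4* and *SESN2*, with 0.672% of all genes), 0 at 24 h (1.99%), and in THP1 by 1 at 8 h (*SESN2*, 0.761%) and 1 at 24 h (*SESN2*, 2.20%). Voom, limma's method for counts, called 1 member on the recovered reads in THP1 at 24 h (*SESN2*) and 0 in the other 3 comparisons, and an exact Kruskal-Wallis test followed by an exact Dunn test, both needing p under 0.05 beside the same fold threshold, was passed by 2 in MV4-11 at 8 h (*DDIT4* and *SESN2*) and by 0 in the other 3. *SESN2* in THP1 at 24 h had an exact Dunn p of 0.0369 and missed only on the exact Kruskal-Wallis test (p = 0.0714). The median log2 fold change of the 10 members was 0.13 in MV4-11 at 8 h and 0.11 at 24 h, beside 0.06 and 0.08 over all genes. In THP1 it was -0.09 at both times, beside -0.12 over all genes at both. The labels describe the libraries of a group as independent replicates, and all p-values measure the spread between these libraries alone.

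**Figure D1:**
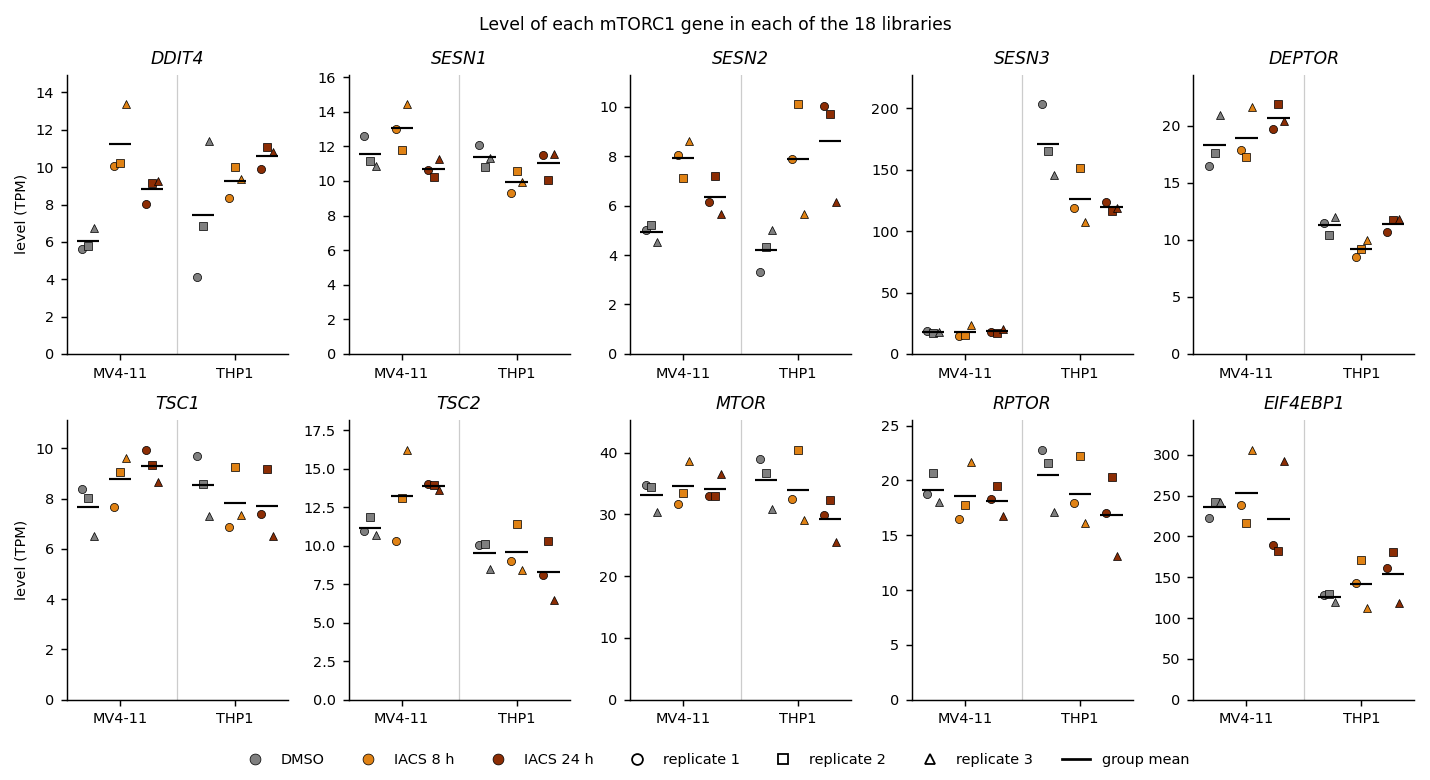
TPM of the 10 members in each of the 18 libraries (points, linear axes that differ between genes), with the mean of each group of 3 as a bar. *SESN3* lies between 107 and 203 TPM in all THP1 libraries and between 14.3 and 23.6 TPM in MV4-11, and *SESN2* lies above the DMSO libraries in each of the 4 IACS groups.

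In the plot of TPM by library, the points of a group mostly lie close together. The coefficient of variation within a group had a median of 6.90% (*SESN1*) to 19.4% (*EIF4EBP1*) over the 6 groups. The widest group was *DDIT4* in THP1 DMSO (49.1%), which limits every comparison of *DDIT4* in that cell line.

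**Figure D2:**
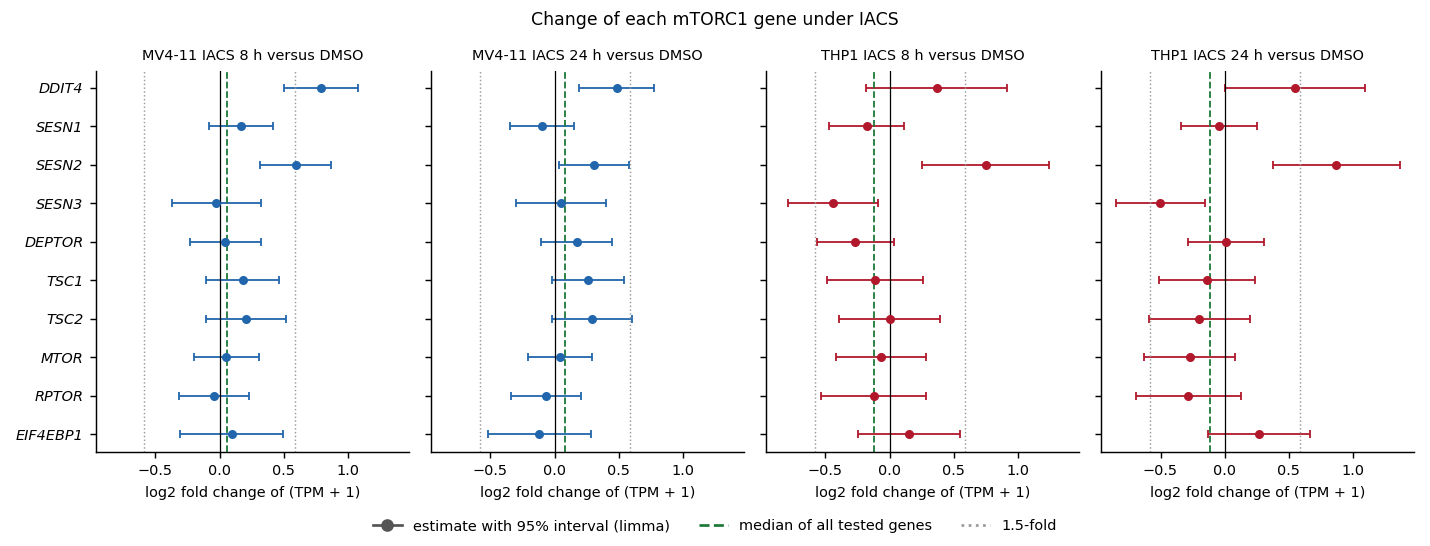
Limma log2 fold change of each member against DMSO on log2(TPM + 1), at 8 h and 24 h of IACS in each cell line, with 95% intervals as bars. The intervals of *SESN2* lie above 0 in all 4 comparisons, and those of *SESN3* in THP1 lie below 0 at both times (-0.79 to -0.09 at 8 h, -0.85 to -0.15 at 24 h).

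Groups that did not overlap give a second view of the same libraries. In MV4-11, 2 members had all 3 libraries above all DMSO libraries at 8 h (*DDIT4* and *SESN2*, with 7.13% of all genes) and 4 did at 24 h (*DDIT4*, *SESN2*, *TSC1* and *TSC2*, with 19.4%), while 0 lay below at either time (1.65% and 5.26%). In THP1, 1 member lay above at 8 h (*SESN2*, 0.704% of all genes) and 2 below (*SESN1* and *DEPTOR*, 4.06%). At 24 h, 1 lay above (*SESN2*, 3.32%) and 1 below (*SESN3*, 10.2%). *SESN2* was thus the only member above DMSO without overlap in all 4 comparisons.

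The THP1 medians over all genes lay below 0, and scaling by the median of ratios within a line changed several of these overlaps. In MV4-11 at 8 h, *DDIT4* and *SESN2* were then above DMSO (8.83% of all genes) and *RPTOR* below (12.1%). At 24 h, *DDIT4*, *SESN2*, *TSC1* and *TSC2* were above (11.5%) and *SESN1* below (13.2%). In THP1 at 8 h, *SESN2*, *EIF4EBP1*, *TSC2* and *MTOR* were above (6.60%) and *SESN3* below (6.49%). At 24 h, *SESN2* and *EIF4EBP1* were above (11.3%) and *SESN3*, *MTOR* and *RPTOR* below (16.2%). *SESN2* thus lay above DMSO in all 4 comparisons on both scales, while *MTOR* of THP1 lay above at 8 h and below at 24 h on the scaled values alone.

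At baseline, 3 of the 10 members were called between the cell lines, below the 38.3% of all genes that were called. *SESN3* was higher in THP1, and *DEPTOR* and *EIF4EBP1* were lower (20.9% of all genes were called higher and 17.3% lower). In MV4-11 under DMSO, the order by mean TPM, a level per length, was *EIF4EBP1* (235), *MTOR* (33.2), *RPTOR* (19.1), *DEPTOR* (18.3), *SESN3* (17.8), *SESN1* (11.5), *TSC2* (11.1), *TSC1* (7.65), *DDIT4* (6.03) and *SESN2* (4.92). The libraries of *RPTOR* and *DEPTOR*, of *DEPTOR* and *SESN3*, of *SESN1* and *TSC2*, and of *TSC1* and *DDIT4* overlapped, so these neighbours did not differ beyond their spread. In THP1 the order was *SESN3* (171), *EIF4EBP1* (126), *MTOR* (35.5), *RPTOR* (20.5), *SESN1* (11.4), *DEPTOR* (11.3), *TSC2* (9.55), *TSC1* (8.54), *DDIT4* (7.46) and *SESN2* (4.22). There the libraries of *SESN1* and *DEPTOR*, *TSC2* and *TSC1*, *TSC1* and *DDIT4*, and *DDIT4* and *SESN2* overlapped. Within each THP1 DMSO library, however, *TSC2* was above *TSC1* and *DDIT4* above *SESN2*. *SESN2* was the lowest member in both cell lines, and the order changed most for *SESN3*.

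**Figure D3:**
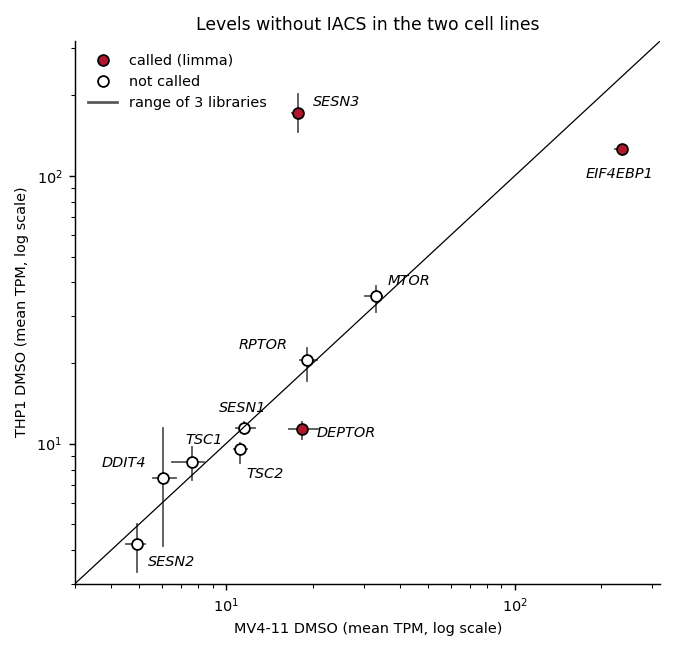
Mean TPM under DMSO in MV4-11 (horizontal) and THP1 (vertical), both log axes, with bars for the range of 3 libraries and a line of equal level. *SESN3* lies far above the line at 171 against 17.8 TPM, *EIF4EBP1* (126 against 235) and *DEPTOR* (11.3 against 18.3) lie below it, and the other 7 members lie close to it. Of these 7, only *TSC2* had libraries without overlap between the lines.

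*DDIT4* (chr10:72273919-72276036, + strand, GRCh38, GENCODE 44) encodes REDD1, the inhibitor that stress induces. In MV4-11 it stood at 5.61, 5.77 and 6.72 TPM in the DMSO libraries, at 10.1, 10.2 and 13.4 TPM after 8 h and at 8.04, 9.15 and 9.24 TPM after 24 h of IACS. Each of the 6 IACS libraries exceeded the highest DMSO library, and the 24 h libraries lay below all 8 h libraries. The mean went from 6.03 ± 0.60 TPM to 11.2 ± 1.86 at 8 h and 8.81 ± 0.667 at 24 h (SD, n = 3). By limma the log2 fold change against DMSO was 0.79 at 8 h (SE 0.13, 95% interval 0.50 to 1.08, adjusted p = 0.122) and 0.48 at 24 h (0.19 to 0.77, adjusted p = 0.185), neither of which passed. The 8 h value lay at the percentile 99.7 of the 13542 genes tested. It was 0.73 above the median of all genes. The 24 h value was 0.46 without the 5 noncoding RNAs (limma adjusted p = 0.0452), under the fold threshold. Median-of-ratios scaling gave 0.39 there (limma adjusted p = 0.0735) and voom 0.45 (adjusted p = 0.0868).

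In THP1, *DDIT4* stood at 4.14, 6.85 and 11.4 TPM under DMSO, at 8.37, 10.02 and 9.34 TPM after 8 h and at 9.90, 11.1 and 10.8 TPM after 24 h. The treated libraries were close to each other, and the DMSO libraries were not: DMSO replicate 3 lay above every treated library, and replicate 1 lay below all of them. Limma gave a log2 fold change of 0.36 at 8 h (-0.18 to 0.91, adjusted p = 0.941) and 0.55 at 24 h (-0.00 to 1.09, adjusted p = 0.578). It rested on the DMSO libraries, with 0.05 at 8 h and 0.23 at 24 h without DMSO replicate 1, and 0.69 and 0.87 without DMSO replicate 3. Without the 3 THP1 libraries numbered 3, *DDIT4* was called at 24 h (0.85, limma adjusted p = 0.0321) and not at 8 h (0.68, adjusted p = 0.339). At baseline *DDIT4* was not called between the cell lines (0.18, -0.27 to 0.63, adjusted p = 0.514), and without the libraries numbered 3 the value was -0.14 (adjusted p = 0.521).

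*SESN2* (chr1:28259518-28282491, + strand) is the sestrin that stress signals induce, and a leucine sensor. Its MV4-11 libraries had 5.004, 5.23 and 4.52 TPM under DMSO, 8.06, 7.13 and 8.60 TPM after 8 h and 6.13, 7.21 and 5.67 TPM after 24 h. Neither treated group overlapped DMSO, while the 8 h and 24 h groups overlapped each other. In limma the log2 fold change was 0.59 at 8 h (SE 0.13, 0.32 to 0.87, adjusted p = 0.38) and 0.31 at 24 h (0.03 to 0.58, adjusted p = 0.357). For the 8 h comparison, an exact Dunn test after an exact Kruskal-Wallis test, the kind of test the study used, gave p = 0.00357 for *SESN2* and p = 0.00119 for *DDIT4*, both two-sided and unadjusted. The labels were permuted over all 9 libraries of the line, so this p also depends on where the 24 h libraries lie. *DDIT4* at 24 h, also without overlap with DMSO, had an exact Dunn p of 0.218. With 3 against 3 libraries alone the smallest exact p is 0.1.

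In THP1 the *SESN2* libraries had 3.32, 4.33 and 4.9999 TPM under DMSO, 7.87, 10.1 and 5.65 TPM after 8 h and 10.03, 9.71 and 6.13 TPM after 24 h. Neither treated group overlapped DMSO, the 8 h and 24 h groups overlapped each other, and the lowest treated library at each time was replicate 3, the one with the largest share of noncoding RNAs. The mean was 4.22 ± 0.847 TPM under DMSO, 7.87 ± 2.22 at 8 h and 8.62 ± 2.17 at 24 h (SD, n = 3). By limma the log2 fold change was 0.75 at 8 h (0.25 to 1.24, adjusted p = 0.941) and 0.87 at 24 h (SE 0.23, 0.37 to 1.37, adjusted p = 0.385). These lay at the percentiles 99.9 and 99.8 of the 13928 genes tested in THP1.

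The call of *SESN2* in THP1 at 24 h depended on the fit. In a fit of all 9 THP1 libraries with a replicate block, *SESN2* rose with the same log2 fold change of 0.87 and an adjusted p of 0.0130 by limma. That fit called 55 genes higher and 241 lower among all genes, against 1 and 5 without the block. The pairing check held for DMSO with 24 h but not for DMSO with 8 h, and the fit includes both. Median-of-ratios scaling also gave a call for *SESN2* (0.96, limma adjusted p = 0.03002), with 47 genes called higher and 58 lower. Without the 3 THP1 libraries numbered 3, *SESN2* was called at both times (1.05 at 8 h, adjusted p = 0.0169, and 1.18 at 24 h, adjusted p = 0.00168, by limma). Among all genes that fit called 6 higher and 15 lower at 8 h, and 39 higher and 142 lower at 24 h. At baseline *SESN2* was not called between the cell lines (-0.19, -0.60 to 0.21, adjusted p = 0.424).

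*SESN1* (chr6:108984309-109094846, - strand) encodes a sestrin, as *SESN2* and *SESN3* do. Its MV4-11 libraries had 12.6, 11.2 and 10.9 TPM under DMSO, 13.0, 11.8 and 14.4 TPM after 8 h and 10.6, 10.2 and 11.3 TPM after 24 h. The THP1 libraries had 12.05, 10.8 and 11.3 TPM under DMSO, 9.33, 10.6 and 9.95 TPM after 8 h and 11.5, 10.1 and 11.6 TPM after 24 h. *SESN1* stayed within 9.33 to 14.4 TPM in all 18 libraries, and only the 8 h libraries of THP1 lay apart from DMSO, on the low side. By limma its log2 fold change was 0.17 (8 h) and -0.10 (24 h) for MV4-11 and -0.18 and -0.04 for THP1, with adjusted p of 0.777 to 0.982. After median-of-ratios scaling the 8 h libraries of THP1 overlapped DMSO, and the 24 h value of THP1 was 0.07. In MV4-11 it then lay below DMSO without overlap at 24 h (-0.19, limma adjusted p = 0.232). The baseline difference was -0.01 (-0.25 to 0.22).

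*SESN3* (chr11:95165513-95232541, - strand) is the sestrin known as a FOXO target. Under DMSO it had 18.3, 17.0 and 18.01 TPM in MV4-11 and 203, 165 and 146 TPM in THP1. Every THP1 library lay above every MV4-11 library. The limma log2 fold change of THP1 against MV4-11 was 3.18 (SE 0.17, 2.83 to 3.53, adjusted p = 1.43e-11), which is 9.09-fold. *FOXO1* (1.82 against 0.112 TPM, 1.34, adjusted p = 8.02e-09) and *FOXO3* (21.7 against 11.4 TPM, 0.87, adjusted p = 2.52e-06), which were picked after their values were seen, were also called higher in THP1 by limma. *FOXO4* was called lower (2.44 against 7.24 TPM, -1.26, adjusted p = 2.82e-07), and a link of any of these to *SESN3* was not tested.

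After IACS, *SESN3* of MV4-11 had 14.3, 15.6 and 23.6 TPM at 8 h and 17.9, 17.4 and 20.04 TPM at 24 h. Both groups overlapped DMSO, and limma gave -0.02 (-0.37 to 0.32) and 0.05 (-0.30 to 0.40). *SESN3* of THP1 had 119, 151 and 107 TPM at 8 h and 124, 116 and 119 TPM at 24 h. The 24 h libraries were tightly grouped, below all DMSO libraries, and those at 8 h overlapped DMSO as deposited but lay below it after median-of-ratios scaling (-0.30, limma adjusted p = 0.61). The limma log2 fold change was -0.44 at 8 h (adjusted p = 0.941) and -0.50 at 24 h (SE 0.16, adjusted p = 0.492), neither of which passed. With the replicate block the 24 h value had an adjusted p of 0.0205 by limma but stayed under the fold threshold of 1.5, and after median-of-ratios scaling it was -0.38 (adjusted p = 0.0718). Without the 3 THP1 libraries numbered 3, *SESN3* was called lower at 24 h (-0.61, adjusted p = 0.0311).

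The makeup of the sestrin transcripts therefore differed between the lines more than it did with treatment. *SESN3* made up 51.0%, 50.9% and 54.0% of the summed sestrin TPM in the DMSO libraries of MV4-11 and 93.0%, 91.6% and 89.9% in those of THP1. The share of *SESN2* in THP1 was 1.52%, 2.41% and 3.09% under DMSO, 5.78%, 5.86% and 4.599% at 8 h, and 6.91%, 7.15% and 4.49% at 24 h. In MV4-11 it was 13.9%, 15.7% and 13.5% under DMSO, 22.8%, 20.6% and 18.5% at 8 h, and 17.7%, 20.7% and 15.3% at 24 h. Both lines had a larger share of *SESN2* at 8 h with no overlap with DMSO, and at 24 h the groups overlapped by 1 library in MV4-11 only. The sum of the 3 sestrins went from 187 ± 28.8 TPM in THP1 DMSO to 144 ± 25.5 at 8 h and 139 ± 5.19 at 24 h, and in MV4-11 it was 34.2 ± 1.48, 38.9 ± 6.73 and 35.5 ± 1.30 TPM (SD, n = 3). The gain of *SESN2* in TPM was thus small beside the level of *SESN3* in THP1.

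In a ratio of 2 transcripts within a library, the scaling to a fixed sum cancels. *SESN2* per *SESN1* in MV4-11 was 0.398, 0.468 and 0.416 under DMSO, 0.619, 0.604 and 0.597 at 8 h and 0.578, 0.705 and 0.504 at 24 h. In THP1 it was 0.275, 0.4002 and 0.442 under DMSO, 0.844, 0.953 and 0.568 at 8 h and 0.875, 0.963 and 0.530 at 24 h. All 12 treated libraries exceeded all DMSO libraries of their own line. *DDIT4* per *SESN1* gave the same separation in MV4-11, with 0.445 to 0.619 under DMSO, 0.773 to 0.926 at 8 h and 0.758 to 0.895 at 24 h. In THP1 it did not, because DMSO replicate 3 had 1.01, within the treated range of 0.863 to 1.10. *SESN3* per *SESN1* in THP1 was 16.9, 15.2 and 12.9 under DMSO, 12.8, 14.3 and 10.8 at 8 h and 10.8, 11.5 and 10.3 at 24 h. These ratios show unequal change between the sestrins and were given no test.

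**Figure D4:**
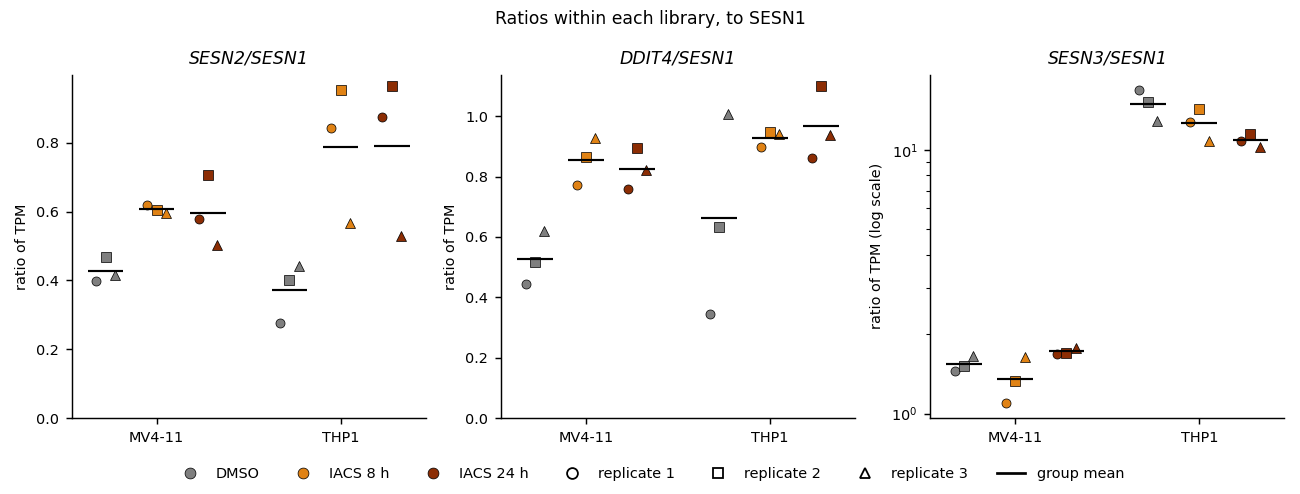
Ratios of TPM within each library for pairs of stress inhibitors, by cell line and condition (points, 1 per library; bars, group means). *SESN2* per *SESN1* is above every DMSO library of its line in all 12 treated libraries, and *DDIT4* per *SESN1* is so in MV4-11 only.

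*DEPTOR* (chr8:119873717-120050918, + strand) inhibits mTOR from within its complexes. Under DMSO it had 16.5, 17.6 and 20.9 TPM in MV4-11 and 11.5, 10.4 and 12.04 TPM in THP1. The lines did not overlap, and the limma log2 fold change of THP1 against MV4-11 was -0.65 (SE 0.12, adjusted p = 0.000198). Without MV4-11 DMSO replicate 3, the highest DMSO library, it was -0.55 and no longer past the fold threshold (adjusted p = 0.00221). With IACS, MV4-11 had 17.9, 17.2 and 21.7 TPM at 8 h and 19.7, 21.9 and 20.5 TPM at 24 h, which overlapped DMSO. THP1 had 8.52, 9.17 and 10.02 TPM at 8 h and 10.6, 11.8 and 11.8 TPM at 24 h. The 8 h libraries of THP1 lay below DMSO and below those of 24 h, with a limma log2 fold change of -0.27 (-0.56 to 0.03, adjusted p = 0.941), and after median-of-ratios scaling they overlapped DMSO.

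*TSC1* (chr9:132891348-132946874, - strand) and *TSC2* (chr16:2047967-2089491, + strand) encode the partners hamartin and tuberin. *TSC1* in MV4-11 had 8.40, 8.04 and 6.51 TPM under DMSO, 7.65, 9.06 and 9.63 TPM at 8 h and 9.92, 9.35 and 8.67 TPM at 24 h. *TSC2* in MV4-11 had 10.9, 11.8 and 10.7 TPM under DMSO, 10.3, 13.1 and 16.2 TPM at 8 h and 14.0, 13.9 and 13.6 TPM at 24 h. Both were above DMSO at 24 h without overlap, as 19.4% of all genes were. The limma log2 fold change at 24 h was 0.26 for *TSC1* (-0.02 to 0.54) and 0.29 for *TSC2* (-0.02 to 0.60), and neither passed. Exons of *TSC2* overlap those of *PKD1* on the opposite strand (13.3 to 28.2 TPM). Whether the counting used the strand is not given in the sources used here, and without it reads in the exons that overlap cannot be told apart.

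In THP1, *TSC1* had 9.69, 8.60 and 7.32 TPM under DMSO, 6.86, 9.25 and 7.37 TPM at 8 h and 7.40, 9.17 and 6.51 TPM at 24 h. *TSC2* had 10.1, 10.1 and 8.49 TPM under DMSO, 8.98, 11.4 and 8.43 TPM at 8 h and 8.10, 10.3 and 6.48 TPM at 24 h. All of these groups overlapped DMSO, with limma log2 fold changes of -0.11 and -0.14 for *TSC1* and -0.00 and -0.20 for *TSC2*. After median-of-ratios scaling the 8 h libraries of *TSC2* lay above DMSO without overlap (0.12, limma adjusted p = 0.798), and its 24 h value was -0.09. *TSC2* per *TSC1* was 1.30, 1.47 and 1.64 in the DMSO libraries of MV4-11 and 1.04, 1.17 and 1.16 in those of THP1. Neither gene alone was called between the lines (0.14, -0.18 to 0.46 for *TSC1*; -0.21, -0.55 to 0.14 for *TSC2*). Still, the DMSO libraries of *TSC2* in THP1 lay below those of MV4-11 (10.7 to 11.8 TPM) without overlap. For *TSC2*, median-of-ratios scaling gave -0.22 (limma adjusted p = 0.0193) and voom -0.23 (adjusted p = 0.0221), both under the fold threshold.

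*MTOR* (chr1:11106535-11262556, - strand) and *RPTOR* (chr17:80544819-80966371, + strand) encode the kinase and the scaffold that defines mTORC1. *MTOR* in MV4-11 had 34.8, 34.5 and 30.4 TPM under DMSO, 31.6, 33.4 and 38.6 TPM at 8 h and 33.0, 32.9 and 36.6 TPM at 24 h. *MTOR* in THP1 had 39.0, 36.7 and 30.9 TPM under DMSO, 32.5, 40.4 and 29.0 TPM at 8 h and 29.9, 32.4 and 25.5 TPM at 24 h. As deposited, the groups of a line overlapped throughout. By limma the log2 fold change was 0.05 (-0.20 to 0.31) and 0.04 (-0.21 to 0.29) in MV4-11 at 8 h and 24 h, and -0.07 (-0.42 to 0.28) and -0.27 (-0.63 to 0.08) in THP1. After median-of-ratios scaling the 8 h value of THP1 was 0.07, with no overlap with DMSO (limma adjusted p = 0.845).

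*RPTOR* had 18.7, 20.7 and 17.997 TPM in MV4-11 under DMSO, 16.5, 17.7 and 21.7 TPM at 8 h and 18.3, 19.5 and 16.7 TPM at 24 h. In THP1 it had 22.8, 21.6 and 17.2 TPM under DMSO, 17.9, 22.2 and 16.1 TPM at 8 h and 17.0, 20.3 and 13.1 TPM at 24 h. Replicate 3 was the lowest library of every THP1 group for both *MTOR* and *RPTOR*. The limma log2 fold change of *RPTOR* ranged from -0.28 (-0.69 to 0.12; THP1 at 24 h) to -0.04 (-0.32 to 0.23; MV4-11 at 8 h). After median-of-ratios scaling, *RPTOR* of MV4-11 lay below DMSO without overlap at 8 h (-0.11, limma adjusted p = 0.583), and *MTOR* and *RPTOR* of THP1 lay below DMSO without overlap at 24 h, at -0.16 (adjusted p = 0.112) and -0.17 (adjusted p = 0.142) by limma. *MTOR* per *RPTOR* had a mean of 1.74 in the DMSO libraries of both lines (SD 0.105 in MV4-11 and 0.0579 in THP1, n = 3). The 95% intervals of both genes stay within 1.5-fold in MV4-11 and reach past it on the low side in THP1 at 24 h.

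*EIF4EBP1* (chr8:38030534-38060365, + strand) encodes the translation repressor 4E-BP1 and is itself a known *ATF4* target. In MV4-11 it had 223, 242 and 242 TPM under DMSO, 239, 217 and 305 TPM at 8 h and 190, 182 and 292 TPM at 24 h. In THP1 it had 128, 130 and 120 TPM under DMSO, 143, 171 and 112 TPM at 8 h and 162, 181 and 119 TPM at 24 h. At baseline it was lower in THP1, with a limma log2 fold change of -0.90 (SE 0.19, adjusted p = 0.000751), or 0.537-fold. Replicate 3 stood apart after IACS in both lines, as the highest library in MV4-11 and the lowest in THP1. These are the libraries of their line with the lowest and the highest share of noncoding RNAs, respectively.

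The limma log2 fold change of *EIF4EBP1* was 0.09 (-0.31 to 0.50) and -0.12 (-0.52 to 0.28) in MV4-11 at 8 h and 24 h, and 0.15 (-0.24 to 0.55) and 0.27 (-0.13 to 0.66) in THP1. In MV4-11 it was -0.05 at 8 h without replicate 3 of that group, and -0.34 at 24 h without replicate 3 of that one. Without the 3 THP1 libraries numbered 3, *EIF4EBP1* had 0.27 at 8 h (limma adjusted p = 0.717) and 0.40 at 24 h (adjusted p = 0.1303), and without the 5 noncoding RNAs 0.27 and 0.41. By voom the 24 h value of THP1 was 0.40 with an adjusted p of 0.0336, under the fold threshold. None of these was called. After median-of-ratios scaling the THP1 libraries lay above DMSO without overlap at both times, with 0.29 at 8 h (adjusted p = 0.585) and 0.38 at 24 h (adjusted p = 0.0525). *EIF4EBP1* per *MTOR* in THP1 was 3.29, 3.54 and 3.87 under DMSO, 4.39, 4.23 and 3.87 at 8 h and 5.40, 5.59 and 4.67 at 24 h. In MV4-11 it was 6.40 to 7.97 under DMSO, 6.49 to 7.91 at 8 h and 5.54 to 7.99 at 24 h. The ratio was thus higher at 24 h in every THP1 library and overlapped DMSO in MV4-11. It does not describe *EIF4EBP1* alone, since *MTOR* had -0.27 by limma in THP1 at 24 h (not called). In replicate 3 of that group, *EIF4EBP1* itself was below all DMSO libraries (119.0 against 119.6 TPM or more), with *MTOR* at 25.5 TPM.

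Between 8 h and 24 h of IACS, 0 of 10 members were called in MV4-11 (0% of all genes) and 0 in THP1 (0.00718%). With an unadjusted limma p and the same fold the count was also 0 in both (0.465% and 1.19% of all genes), as it was by voom. Among all genes voom called 65 higher and 63 lower in THP1 and 0 in MV4-11. In MV4-11, 3 of the 4 stress inhibitors were lower at 24 h with 95% intervals below 0. They were *DDIT4* (-0.31, -0.60 to -0.02), *SESN1* (-0.26, -0.51 to -0.01) and *SESN2* (-0.29, -0.56 to -0.01), each with a limma adjusted p of 1.00 and under the fold threshold. 2 of these, *DDIT4* and *SESN1*, had 24 h libraries below all 8 h libraries, as 2.05% of all genes did. In THP1 the corresponding values were 0.18 (-0.37 to 0.73), 0.14 (-0.16 to 0.43) and 0.12 (-0.37 to 0.62), and of the 10 members only *DEPTOR* was without overlap, above at 24 h (5.11% of all genes). After median-of-ratios scaling *DEPTOR* overlapped there (0 members above, with 10.3% of all genes), and *TSC2*, *MTOR* and *RPTOR* of THP1 lay below their 8 h libraries (15.9%), at -0.22, -0.22 and -0.18 with limma adjusted p of 0.139, 0.0519 and 0.146. In MV4-11 the scaled 24 h libraries lay below those of 8 h for *DDIT4*, *SESN1* and *SESN2* (4.87% of all genes), and above them for 0 members (5.81%).

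The difference between the lines in the response was tested as an interaction, with 0 of 10 members called at 8 h and 0 at 24 h (0.00796% of all genes each). Without adjustment it was also 0 at both times (1.47% and 4.02% of all genes), and 0 by voom. At 24 h the 95% interval of the difference excluded 0 for *SESN2*, with a larger value in THP1 (0.56, 0.00096 to 1.124), for *SESN3* (-0.55, -1.04 to -0.06) and for *TSC2* (-0.49, -0.97 to -0.01), each with a limma adjusted p of 0.697. At 8 h it did so for *SESN1* (-0.35, -0.69 to -0.01, adjusted p = 0.910). For *DDIT4* the difference was -0.43 (-1.05 to 0.20) at 8 h and 0.06 (-0.56 to 0.69) at 24 h. The median interaction over all genes was -0.17 at 8 h and -0.20 at 24 h, so a difference of that size is shared by the table as a whole.

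The genes whose pattern was most like *DDIT4*, *SESN2* and *SESN3* were taken from 8843 genes by Pearson's r over the 18 libraries, after centring log2(TPM + 1) within each line. For *SESN2* they were *TRIB3* (r = 0.92), a pseudokinase induced by *ATF4*, *PSAT1* (0.80), an enzyme of serine synthesis, and *ALDH1L2* (0.80), a mitochondrial folate enzyme. *TRIB3* went from a mean of 6.13 TPM to 11.1 at 8 h and 7.27 at 24 h in MV4-11, and from 19.3 to 33.6 and 38.4 in THP1, the same order of groups as *SESN2*. For *DDIT4* the first was *SESN2* (0.72), followed by *PLA2G15* (0.69). For *SESN3* they were *NARF*, *ABHD2* and *MFSD14B* (0.93 each). The libraries share treatment, depth and noncoding RNA share, so these values describe likeness only.

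The rest of the pathway was followed through 86 genes in 8 lists, with 78 tested for MV4-11 and 80 for THP1. 0 were called in the 4 comparisons with DMSO. At an unadjusted limma p with the same fold, MV4-11 had 2 higher at 8 h and 0 at 24 h, and THP1 had 2 higher at 8 h, and 2 higher and 1 lower at 24 h. Groups above DMSO without overlap numbered 8 of 78 at 8 h (7.13% of all genes) and 19 of 78 at 24 h (19.4%) for MV4-11, with 1 (1.65%) and 2 (5.26%) below. For THP1 they numbered 1 of 80 at 8 h (0.704%) and 7 of 80 at 24 h (3.32%), with 4 (4.06%) and 11 (10.2%) below. In MV4-11, where the median of all genes was above 0, so were the medians of 6 of the 8 lists at each time. In THP1, where it was below 0, so were those of 8 of 8 lists at 8 h and of 7 of 8 at 24 h.

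Of the list genes named by the rule, *TRIB3*, *DDIT3* and *ATF4* belong to the integrated stress response. *TRIB3*, which binds AKT, had log2 fold changes of 0.76 (8 h) and 0.22 (24 h) in MV4-11 and of 0.76 and 0.95 in THP1 (not called, limma adjusted p = 0.126 at the lowest). *DDIT3*, which encodes CHOP, had 0.60 and 0.55 in MV4-11 and 0.71 and 0.35 in THP1. *ATF4* stood at 179 ± 11.9 TPM in MV4-11 DMSO, 231 ± 22.4 at 8 h and 252 ± 11.996 at 24 h, with treated libraries above DMSO at both times (0.36, adjusted p = 0.982, and 0.49, adjusted p = 0.132, by limma). In THP1, *ATF4* was at 139 ± 21.1, 182 ± 42.2 and 207 ± 60.2 TPM (SD, n = 3) with overlapping groups (0.37, adjusted p = 0.941, and 0.54, adjusted p = 0.563).

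Among the lists, the factors of the stress inhibitors had the highest median in 3 of the 4 comparisons, with 0.13 and 0.27 in MV4-11 and 0.09 in THP1 at 24 h, and -0.12 in THP1 at 8 h. The mTORC1 and mTORC2 partners had 0.02 and 0.06 in MV4-11 and -0.21 and -0.23 in THP1. *AKT1S1*, which encodes the mTORC1 inhibitor PRAS40, had the largest mean decrease among these partners, with -0.62 in THP1 at 24 h (limma adjusted p = 0.498), and *RICTOR*, the mTORC2 scaffold, was at the other end (mean over the 4 comparisons 0.11). The GATOR, KICSTOR and amino acid sensor list had medians of 0.10 and 0.11 in MV4-11 and -0.07 and -0.19 in THP1, between *CASTOR1*, an arginine sensor (mean 0.17), and *SEH1L* (-0.23). The Rag, Ragulator and folliculin list had 0.00 and 0.03, and -0.04 and -0.11, between *RRAGD* (mean 0.19) and *LAMTOR5* (-0.19). The substrates and translation effectors had -0.03 and -0.03, and -0.14 and -0.20, between *EIF4B* (mean 0.13) and *EIF4G1* (-0.22).

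The AMPK and LKB1 list, the energy sensor that phosphorylates *TSC2* and raptor, had medians of 0.11 and 0.14 in MV4-11 and -0.11 and -0.13 in THP1. Its ends were *PRKAB2* (mean 0.15) and *CAB39* (-0.07). The PI3K-AKT list had 0.10 and 0.17, and -0.13 and -0.12, with *TRIB3* and *PIK3R1* (mean -0.08) at its ends. The TSC complex partner *TBC1D7* and *RHEB*, the GTPase that activates mTORC1, had means of -0.02 and -0.15. None of these genes was called.

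**Figure D5:**
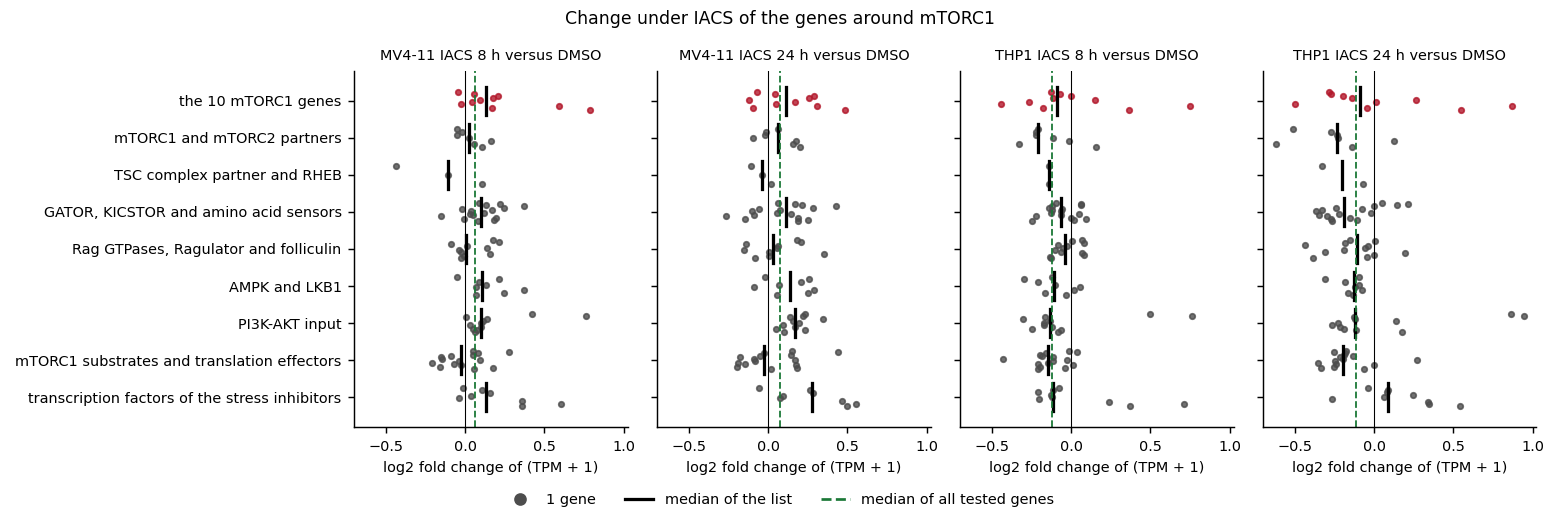
Limma log2 fold changes against DMSO of the members and of 8 lists of pathway genes (points, 1 per gene), for the 4 comparisons, with the median of each list as a bar and the median of all tested genes as a line. Most lists lie near the line of all genes, above 0 in MV4-11 and below 0 in THP1, and the points above 0.5 in more than 1 comparison include *SESN2*, *TRIB3* and *DDIT3*.

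At baseline, 81 of the 86 genes were tested, 16 were called higher and 18 lower in THP1 by limma, where 20.9% and 17.3% of all genes were. A gene could enter this test through the line where it is high. Of 16 GATOR, KICSTOR and amino acid sensor genes, 1 was called higher and 3 lower. Of 15 substrates and translation effectors, 1 was higher and 4 lower. The factors of the stress inhibitors had 4 higher and 2 lower of 9. Of 12 Rag, Ragulator and folliculin genes, 3 were higher and 1 lower. *RRAGD*, which forms the Rag dimer with *RRAGA* or *RRAGB*, was among the higher ones (32.5 against 2.81 TPM, 3.14). *RRAGB*, picked after its values were seen, was at 11.3 TPM in THP1 and listed at 0 in the DMSO libraries of MV4-11. *RHEB* was higher in THP1 (59.7 against 31.0 TPM, 0.92), as were *TRIB3* (19.3 against 6.13 TPM, 1.51) and *DDIT3* (29.8 against 14.2 TPM, 1.02). *TBC1D7* was lower (1.14 against 3.13 TPM, -0.96). *ATF4* was not called (139 against 179 TPM, -0.37, adjusted p = 0.126). Beside these, *MTOR* and *RPTOR* did not pass the test (0.09 each, -0.20 to 0.38 and -0.25 to 0.43).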

How the data were processed

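RNA of MV4-11 and THP1 cells was sequenced in 18 libraries, 6 groups of 3. The authors made TruSeq RNA v2 libraries, sequenced them paired-end on a NovaSeq, trimmed the reads, aligned them to GRCh38 (hg38) in CLC Genomics Workbench v20 and deposited TPM per gene symbol. The annotation release and strand setting are not given in the sources used here. TPM sum to a fixed total, so a change in abundant noncoding RNAs moves all other genes.

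From the deposited TPM, log2(TPM + 1) was tested with limma 3.58.1 in R 4.3.3 (lmFit, then eBayes with its trend option). Each line had 1 fit of its 9 libraries, restricted to genes averaging 1 TPM or more. Baseline and interactions used 1 fit of 18 libraries. Calls needed a Benjamini-Hochberg adjusted p under 0.05 over all tested genes and a fold over 1.5. Kruskal-Wallis and Dunn's tests were run on the members as exact permutation tests over the 9 libraries of a line. Whole reads were recovered for 14897 of 14915 genes (99.9%, tolerance 0.02) and used for depth and 1 voom alternative. The fit was also run on simulated data with independent noise. The planted changes were larger than those of the members after IACS in the main fit. That run therefore does not bear on changes of the members' size.

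To check pairing, each library's deviation from its group mean was correlated over genes with that of the same-numbered library. All 3 correlations were over 0.1 for THP1 DMSO and 24 h (0.146, 0.157 and 0.324), MV4-11 8 h and 24 h (0.110, 0.408 and 0.441) and THP1 8 h and 24 h (0.183, 0.277 and 0.357), and not for MV4-11 DMSO with 8 h or 24 h or THP1 DMSO with 8 h. Replicate 1 of MV4-11 at 24 h correlated more with an 8 h library of another number (0.387) than with its own (0.110). The pairing thus comes from the data, not from the labels.

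The members and lists were chosen with earlier results of these data known. Named beside the members were the ends of each list by mean log2 fold change over the 4 comparisons, *ATF4*, markers that go against the label and the 3 genes most like *DDIT4*, *SESN2* and *SESN3*. Other genes are said to be picked later, and the values of 2 genes that this rule named are not reported here. Alternatives were another pseudocount, other filters, median-of-ratios scaling, the replicate block, no variance trend, unadjusted p, only the libraries compared and leaving out each library. TPM without 5 noncoding RNAs, voom and leaving out the THP1 libraries numbered 3 were chosen after seeing the data. Coordinates come from GENCODE 44, and promoters from RefSeq (GRCh38.p14). List genes were found under the file's symbols, 2 of the 86 by an older one.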

Additional observations from a re-analysis of the deposited data

How the results depend on the processing

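Of 2158 values of the members under an alternative, 2141 kept their side of the threshold, 16 passed it newly and 1 lost its call. No called value changed sign. Another 102 uncalled values did, the largest of them 0.21 in size. In MV4-11 at 8 h, the count of members called higher was 0 and became 2 without adjustment and 2 by Kruskal-Wallis and Dunn's tests (*DDIT4* and *SESN2*). In THP1 at 8 h it went from 0 to 1 (*SESN2*) without adjustment or without the 3 THP1 libraries numbered 3. In THP1 at 24 h it went from 0 to 1 (*SESN2*) with median-of-ratios scaling, without the 5 noncoding RNAs (1.07, adjusted p = 0.0424), with voom on the recovered reads (1.15, adjusted p = 0.0177) and without adjustment, and to 2 (*DDIT4* and *SESN2*) without the libraries numbered 3, which also gave 1 member called lower (*SESN3*). Over all genes, 56 were called higher and 36 lower without the 5 noncoding RNAs, and 39 and 142 without the libraries numbered 3. The main fit called 1 and 5. At baseline the count of members called lower was 1 to 2 when a library was left out, 1 without MV4-11 DMSO replicate 3 (*DEPTOR* lost its call). Of 72 list medians under another pseudocount or scaling, 11 moved by more than the spread and 11 changed sign. The cause of these changes was not tested.

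The replicate block gave 1 member called higher in MV4-11 at 8 h (*DDIT4*, 0.79, adjusted p = 0.0314, with 8 genes called higher and 2 lower), where the pairing check did not hold. It also gave 1 in THP1 at 24 h (*SESN2*), where the check held for DMSO with 24 h but not for DMSO with 8 h. Block and scaling together gave 1 in THP1 at 24 h (*SESN2*, 0.96, adjusted p = 0.0221), with 82 genes called higher and 96 lower. The block changed no other call of a member. The unit keeps no depth of its own, and *DDIT4* and *SESN2*, with the fewest reads, also had few TPM, where log2(TPM + 1) understates a change.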
